A study of Mus musculus with 2 samples.

Results

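The cells described here, under the working name Ear2 Mgl2 macrophages, are kidney leukocytes that carried transcripts of Ear2 and Mgl2 together with a level of the complement gene C1qa between those of C1qa-high cells and of Cd209a cells. They numbered 185 of the 6601 cells that passed the cell filter, 70 of 3115 in hashed sample 1 (2.25%, 95% Clopper-Pearson interval 1.76 to 2.83%) and 115 of 3486 in hashed sample 2 (3.30%, interval 2.73 to 3.95%). They were chosen by measured values. Each had at least 10 and under 40 C1qa UMIs per 10000 gene UMIs of its own cell (p10k), at least 2 Ear2 UMIs and at least 2 Mgl2 UMIs. Each also had under 30 p10k of Il1b and Cxcl2 together, under 25 p10k of Arg1, Mmp12, Lpl and Gpnmb together, and no UMI of Cd3d, Cd3e or Cd3g. A UMI is the molecular barcode by which 1 captured RNA molecule is counted once.

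The kidneys were those of mice of genotype B6 in the AAN CKD treatment, that is, in a model of aristolochic acid nephropathy in which a plant toxin injures the tubules, and the time label is week 2. The tissue was digested with a collagenase mixture, viable cells carrying the leukocyte surface protein CD45 were sorted, and 2 hashed samples, each marked by its own antibody-borne barcode, were run in 1 droplet capture. The labels do not say whether the hashed samples came from separate animals, and the title of the single-cell sample names 1 mouse and both week 1 and week 2. The organism label and every gene identifier are mouse, although the protocol mentions human kidneys and the cells are labelled mesenchymal stem cells, while untreated mice and the expression of a tissue section of the model were not analysed here.

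The members were set beside 2 classes named with the rule and 1 near neighbour. C1qa-high cells had at least 40 p10k of C1qa and numbered 1020 in hashed sample 1 and 1529 in hashed sample 2. Cd209a cells had at least 2 UMIs of Cd209a, a lectin gene of type 2 dendritic cells, and under 10 p10k of C1qa, and numbered 141 and 280. The near neighbours met every criterion except that their Il1b and Cxcl2 sum was 30 p10k or more, and numbered 7 and 27. The median depth of the members was 9118.5 and 9799 UMIs per cell in hashed samples 1 and 2, against 6249 and 6860 in C1qa-high cells and 8903 and 9444.5 in Cd209a cells. No barcode was shared by the 2 hashed samples.

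Kidney macrophages are long-lived phagocytes that survey the tubules and peritubular capillaries, and C1q, the recognition molecule that starts the classical complement pathway, is made mainly by macrophages. Blood monocytes that enter a tissue through the chemokine receptor Ccr2 can become macrophages and then gain C1q, while type 2 dendritic cells present antigen on MHC class II to CD4 T cells. Ear2 encodes a ribonuclease of the eosinophil-associated family that is also found in mouse monocytes and macrophages, and Mgl2 (CD301b) encodes a galactose-binding lectin of dendritic cells and of macrophages exposed to interleukin 4.

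Ear2 lies at chr14:44102654-44103534 on the plus strand and Mgl2 at chr11:70130329-70137550 on the plus strand (GRCm38, GENCODE M21). Of the 50-base windows in the last 500 bases of Ear2 transcripts, 38.1% also occur in other Ear genes or pseudogenes, so that a read there cannot always be given to 1 family member. The other family members Ear1, Ear6, Ear10 and Ear14 had 0 UMIs in the members. For Mgl2 the share was 4.21%, with none shared with its neighbour Clec10a.

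Stretches of a pair of promoters are shown because the genes behind them, Ccl17 and Retnla, stood highest in the members relative to C1qa-high cells and are textbook targets of the interleukin 4 pathway, which acts through STAT6. The promoters of the rule's genes were searched too, and that of Ear2 held none of the motifs below and that of Mgl2 an ETS-type match and no STAT6 match. Both stretches run 5′ to 3′ on the plus strand, from 250 to 61 bases before the RefSeq transcript start (GRCm38.p6), and capitals mark the letters that match a searched motif on either strand.
Ccl17, chr8:94810203-94810392: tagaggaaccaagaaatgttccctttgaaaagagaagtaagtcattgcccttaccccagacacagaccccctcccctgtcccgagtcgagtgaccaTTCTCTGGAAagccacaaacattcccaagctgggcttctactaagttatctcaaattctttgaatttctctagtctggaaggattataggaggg
Retnla, chr16:48842359-48842548: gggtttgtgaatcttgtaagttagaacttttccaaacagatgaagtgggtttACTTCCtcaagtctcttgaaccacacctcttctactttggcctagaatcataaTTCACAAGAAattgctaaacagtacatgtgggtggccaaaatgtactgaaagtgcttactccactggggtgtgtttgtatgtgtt
Each stretch held 1 match to TTC and GAA with 4 bases of any kind between them, the letters bound by STAT6. That motif occurs in 5.85% of 32851 RefSeq promoters over their 250 upstream bases. The Retnla stretch also held the reverse complement of GGAAGT, the ETS-type letters bound by PU.1, which 19.7% of the promoters contain. TGANTCA, bound by AP-1 and held by 6.75% of promoters, and GAAA repeated after 2 bases, bound by IRF factors and held by 2.98%, were searched as well and were not in either stretch shown. No match overlapped another. A match is a string of letters and was not tested for binding.

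The rule fixed the levels of its own genes, which are given as a description. Median C1qa was 23.1 p10k in hashed sample 1 and 25.3 p10k in hashed sample 2. Median Ear2 was 10 and 8 UMIs per cell, with a range of 2 to 68 and of 2 to 64 UMIs, and median Mgl2 was 11 and 17 UMIs. The members were a selection along continuous values. The lowest C1qa value inside the rule was 10.1 p10k, and the highest outside it, among cells that failed only there, was 9.93 p10k. At the other end the values were 39.9 p10k inside and 40.3 p10k outside. Of the cells that failed a single criterion, 312 had too little C1qa, 91 too much C1qa, 155 too little Ear2, 12 too little Mgl2, 34 too much Il1b and Cxcl2, 31 too much of the Arg1 group and 14 a Cd3 UMI.

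**Figure D1:**
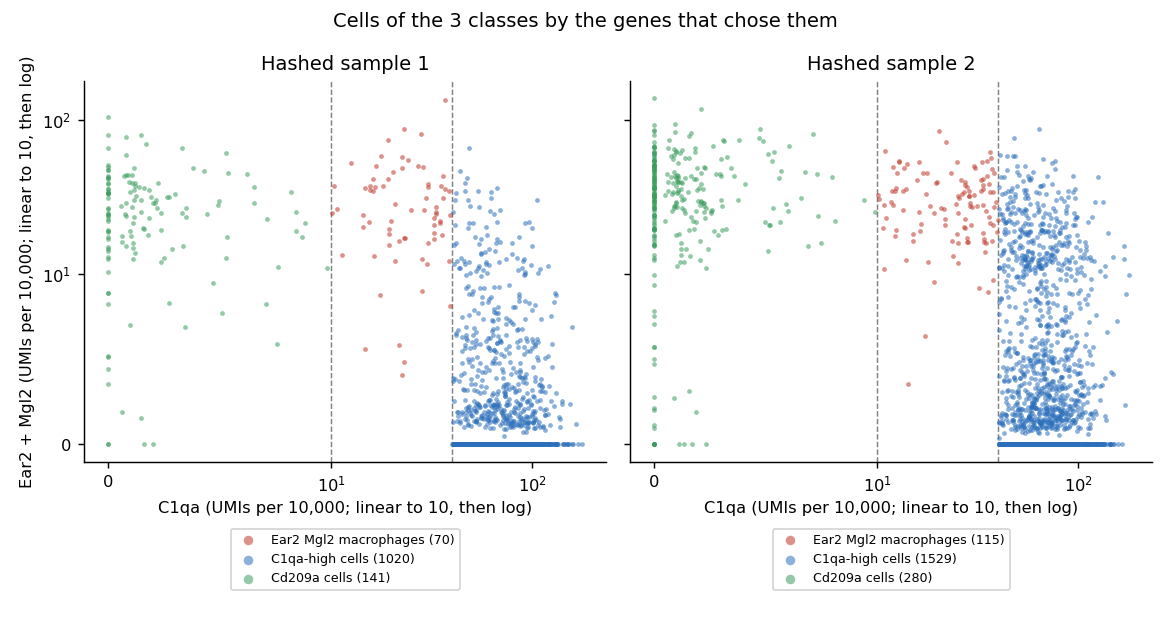
C1qa (x axis, p10k) against Ear2 plus Mgl2 (y axis, p10k), both linear to 10 and logarithmic above, for single cells of each hashed sample, with members, C1qa-high cells and Cd209a cells as separate colours and the rule's C1qa limits of 10 and 40 p10k as dashed lines. The members fill the band between the limits, C1qa-high cells begin at its upper edge, and most Cd209a cells lie near 0.

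The label was checked against defining markers that the rule did not use. Ccr2, the receptor of monocyte-attracting chemokines, had a UMI in all 185 members. After thinning every cell to 2000 UMIs it was still found in 95.7% and 93.9% of members, against 43.6% and 55.5% of C1qa-high cells and 62.4% and 72.9% of Cd209a cells. In T cells, which should lack most myeloid RNA and so served as a reference for free RNA, the shares were 13.7% and 19.4%. Whether T cells made some Ccr2 themselves was not tested. Thinning left out 64 and 83 shallower C1qa-high cells and no member. Lyz2, lysozyme, had a UMI in all members, at a median of 110 and 101 p10k per cell, against 132 and 136 p10k in C1qa-high cells and 9.33 and 11.8 p10k in Cd209a cells. The growth factor receptor gene Csf1r was found after thinning in 44.3% and 40% of members, against 73.3% and 74.7% of C1qa-high cells and 25.5% and 25.7% of Cd209a cells. Without thinning these shares were 84.3% and 93.9% of members, 94.4% and 96.7% of C1qa-high cells and 66.7% and 69.6% of Cd209a cells.

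Other defining genes were low. Adgre1, which encodes the macrophage surface protein F4/80, was found in 15.7% and 19.1% of members, against 55.7% and 67.9% of C1qa-high cells and 11.3% and 6.07% of Cd209a cells, without thinning. The T cell reference stood at 2.69% and 2.11%. Of the dendritic cell genes, Flt3 had no UMI in the 70 and 115 members (3 counts would be 4.29% and 2.61%), against 14.2% and 9.29% of Cd209a cells with one. Zbtb46 was found in 4.29% and 7.83% of members, against 19.9% and 23.9% of Cd209a cells and 2.13% and 0.937% of T cells, again without thinning. After thinning these shares were 0% and 1.74% of members, 4.26% and 7.86% of Cd209a cells and 0.589% and 0.249% of T cells. Without thinning, Ly6c2, the defining gene of classical monocytes, was found in 0% and 2.61% of members, and Plac8 in 0% and 5.22%. The T cell reference was above both, at 17.9% and 25.8% for Ly6c2 and 21.8% and 12.2% for Plac8. C1qa-high cells stood at 0.784% and 0.392% for Ly6c2 and 1.67% and 1.83% for Plac8. The T cell shares are therefore not a level of free RNA for these genes. The members thus carried Ccr2 and lysozyme RNA broadly and lacked most RNA of F4/80, of Flt3 and of Ly6c2. As the F4/80 gene and other macrophage genes below go against the macrophage name, the cells are called by the genes of their rule or as members of it.

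Markers of other cells stood near 0. Of 8 T cell markers, 5 and 4 had no UMI in the members, and of 9 eosinophil, basophil and mast cell markers 8 had none in each hashed sample, so that the eosinophil-associated name of Ear2 did not come with eosinophil RNA. Of 8 neutrophil markers, 6 and 3 had none. A Cd209a UMI was present in 20 of 70 and 35 of 115 members. Scrublet, a doublet caller, marked 1 of the 185 members and 40 of all 6601 cells (0.606%).

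Most genes that separate C1qa-high cells from Cd209a cells stood between the 2 levels in the members, and more of them nearer to the Cd209a level, while a few genes stood above both. By counts of called genes the members differed less from Cd209a cells than from C1qa-high cells, and this order turned round where both compared classes were held to the same Ear2 and Mgl2 limits. UMIs were summed over the cells of a class within each hashed sample and expressed per 1000000 UMIs of the class (CPM). Where scaling the class totals by the trimmed mean of M values (TMM) changed a count, that count is given too. A gene was called higher or lower where the ratio of the members to the other class, with 10 CPM added to both, was at least 1.5-fold in the same direction in both hashed samples, among genes that reached 50 CPM in either class in each hashed sample. With 1 capture and no replicate animals known there is no test, and since the classes were cut on C1qa, Cd209a, Ear2 and Mgl2, genes that vary with those differ by construction. The members alone, and not C1qa-high or Cd209a cells, were held to the limits on Il1b and Cxcl2, the Arg1 group and Cd3. Genes that vary with these limits are affected in the same way. Each gene's values are a description of these cells. Intervals on ratios are exact 95% intervals that cover counting error only.

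Against C1qa-high cells, 174 of 2743 measured genes were higher in the members (6.34%) and 219 were lower (7.98%), and with TMM these counts were 160 and 239. Median log2 ratios over all measured genes were 0.04 and -0.01. Ccl17, Retnla and Fgfr1 stood highest in members, and Ccl8, Ms4a7 and Apoe stood lowest.

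Ccl17, a ligand of the T cell receptor Ccr4, was at 982 and 388 CPM in members, against 42.4 and 39.7 CPM in C1qa-high cells (mean log2 ratio 3.62). The hashed samples agreed in direction and differed in level, and within them the RNA was uneven. A Ccl17 UMI was present in 44 of 70 and 59 of 115 members, and the highest single cells reached 130 and 53.2 p10k. The 3 richest cells held 42.2% and 33.8% of the members' Ccl17 UMIs. After thinning, 31.4% and 27.0% of members had Ccl17, against 4.71% and 4.77% of C1qa-high cells and 4.59% and 4.73% of T cells. The share of C1qa-high cells with Ccl17 was thus near that of T cells. Single cells reached 46.2 and 57.3 p10k among C1qa-high cells and 81.8 and 68.5 p10k among T cells. Whether the T cell share is a level of free RNA for this gene was not tested.

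Retnla, a secreted protein of macrophages exposed to interleukin 4, was at 94.4 and 676 CPM in members, against 5.13 and 40.5 CPM in C1qa-high cells (log2 ratios 2.79 and 3.77). This gene rested on few cells. A Retnla UMI was present in 8 of 70 and 26 of 115 members, and 3 cells held 81.5% and 63.9% of the UMIs. In Cd209a cells it was at 167 and 12.8 CPM, so that the hashed samples pointed in opposite directions for that comparison. Il4ra, the interleukin 4 receptor chain, was not called, at 75.6 and 66.7 CPM in members against 104 and 97.1 CPM in C1qa-high cells. Of the 4 measured genes of the type 2 cytokine response list, Retnla and Ccl17 were thus higher than in C1qa-high cells, and Mrc1 was lower. None of the 4 measured was higher than in Cd209a cells.

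S100a4, a calcium-binding protein of motile leukocytes, differed evenly. It was at 1890 and 1973 CPM in members, against 400 and 447 CPM in C1qa-high cells, a ratio of 4.72 (4.42 to 5.05) and 4.41 (4.20 to 4.63). Bhlhe40, a transcription factor, was at 205 and 171 CPM against 29.5 and 27.0 CPM in C1qa-high cells. Tnip3, an inhibitor of NF-kB signalling, was at 259 and 348 CPM against 38.3 and 71.4 CPM. The other genes in the 10 with the highest ratios were Fgfr1, a fibroblast growth factor receptor, the leukotriene B4 receptor gene Ltb4r1, the transcriptional regulator Lmo1, the lectin receptor Klrb1b and H2-DMb2, with mean log2 ratios of 2.55, 2.37, 2.28, 2.18 and 2.08.

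Apoe, the lipid carrier that typifies kidney macrophages, was at 2192 and 1524 CPM in members, against 39677 and 27674 CPM in C1qa-high cells (log2 ratios -4.17 and -4.17). Most members had no more of it than cells that should not make it. Their median was 4.72 and 3.96 p10k, against 409 and 272 p10k in C1qa-high cells, 4.04 and 3.48 p10k in Cd209a cells, and 6.79 and 8.12 p10k in T cells. A few members were far above that, with the highest at 426 and 240 p10k. By variance over mean between members, Apoe stood at 157 in hashed sample 1 and 95.8 in hashed sample 2.

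Ccl8, a monocyte-attracting chemokine, was at 8.72 and 10.8 CPM in members, against 578 and 412 CPM in C1qa-high cells (log2 ratios -4.97 and -4.34). Ms4a7, a membrane protein of tissue macrophages, was at 10.2 and 25 CPM against 482 and 619 CPM. After thinning it was found in 0% and 4.35% of members, against 49.7% and 57.2% of C1qa-high cells and 3.77% and 1.99% of T cells. The members thus stood near the level of free RNA for this gene.
The other 7 genes with the lowest ratios were Pf4, F13a1 (the A chain of coagulation factor XIII), the selenium carrier gene Selenop, Ms4a6b, the chemokine gene Ccl12, Cd93 and the prostaglandin D synthase gene Hpgds. Their mean log2 ratios ran from -4.11 for Pf4 to -3.13 for Hpgds.

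Genes of macrophage identity were lower as a group. Of 16 such genes measured besides C1qa, 15 were lower in members than in C1qa-high cells and none was higher, with list medians of -1.71 and -1.69 on the log2 scale. They included C1qb at 3783 and 3860 CPM in members, against 7607 and 7725 CPM in C1qa-high cells, and Mertk, a receptor for dying cells, at 33.4 and 14.2 against 124 and 70.8 CPM. All 4 measured genes of long-lived macrophages, Mrc1, Gas6, Stab1 and F13a1, were lower. All 4 Ms4a genes and 5 of 6 scavenger and engulfment receptors were lower too, the exception being Axl at 214 and 219 CPM against 142 and 121 CPM.

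Monocyte and dendritic cell genes lay the other way. All 3 measured genes of the classical monocyte list were higher in members than in C1qa-high cells, namely Ccr2, S100a4 and Fn1. Of 4 measured type 2 dendritic cell genes 3 were higher, among them Itgax, which encodes CD11c, at 257 and 245 CPM against 49.7 and 60.5 CPM. The fourth, Syngr2, was not called. Among 14 transcription factors, those higher were Klf4, Bhlhe40 and Id2, and those lower included Irf8 and Maf (4 lower with TMM). Maf, which maintains tissue macrophages, was at 82.8 and 45.9 CPM in members, against 507 and 684 CPM in C1qa-high cells.

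Chemokines went both ways. Of 13 measured, Ccl6, Ccl9 and Ccl17 were higher in members than in C1qa-high cells, and 7 were lower, namely Ccl2, Ccl3, Ccl7, Ccl8, Ccl12, Cxcl16 and Pf4. Ccl7, a ligand of Ccr2, was at 50.9 and 91.7 CPM in members, against 316 and 589 CPM in C1qa-high cells. Of 6 chemokine receptors, Ccr2 and Ccrl2 were higher and Cx3cr1 and Gpr183 lower. Ccr2 was at 1284 and 1623 CPM against 470 and 631 CPM, whereas Cx3cr1, the fractalkine receptor of resident macrophages, was at 125 and 160 CPM against 550 and 658 CPM.

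Genes of the lysosome, of Fc receptors and of growth control were mostly lower or not called. Of 14 lysosome genes 6 were lower, among them the proteases Ctsb and Lgmn, and Napsa alone was higher, at 328 and 287 CPM in members against 83.1 and 65.0 CPM in C1qa-high cells. Fcgr1, Fcgr3 and Fcgr4 were among 4 of 7 Fc receptor genes that were lower. Igf1, an insulin-like growth factor, had 1 and 0 UMIs in the members, against 51.0 and 70.0 CPM in C1qa-high cells. Among relatives of Ear2 in the ribonuclease family, Ang and Rnase4 were lower, at 21.8 and 10.8 CPM and at 29.1 and 36.7 CPM in members against 116 and 83.2 CPM and 273 and 244 CPM in C1qa-high cells. These genes overlap, so that their reads may not be separable. Rnase6 was called higher, though not with TMM. Of 8 growth factor receptors Csf1r, Tgfbr1 and Tgfbr2 were lower, and of 8 lipid-associated macrophage genes Trem2, Apoe and Cd63 were lower and Lgals3 higher. Of 9 C-type lectins Clec4b1 was higher and Mrc1 and Clec4a1 lower (3 lower with TMM), of 8 integrin and adhesion genes Itgax and Cd44 were higher and Itga6 lower, and of 5 Toll-like receptor genes Tlr7 was lower (2 lower with TMM). For 7 MHC class I genes the count was 1 lower (0 with TMM), for 6 interferon-stimulated genes 1 lower, for 8 heme and iron genes 3 lower, for 8 hypoxia and glycolysis genes 1 higher, and for 3 cell cycle genes none in either direction.

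**Figure D2:**
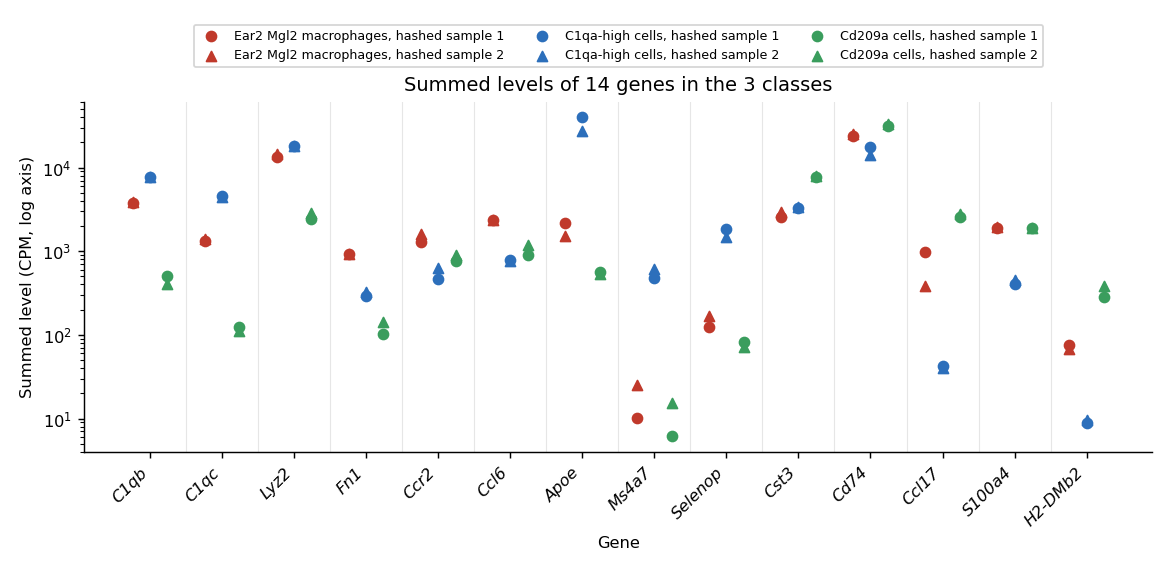
Level of 14 genes (CPM, log scale) in members, C1qa-high cells and Cd209a cells, with 1 point for each hashed sample. Apoe and C1qb are lowest in Cd209a cells and highest in C1qa-high cells, Ccl17 has the opposite order, and Fn1 and Ccr2 are highest in the members.

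Against Cd209a cells, 98 of 2572 measured genes were higher in members (3.81%) and 85 were lower (3.3%). C1qc, C1qb and Fn1 stood highest in members, and Klrd1, H2-Oa and Tbc1d4 stood lowest. Median log2 ratios over all measured genes were 0.08 and 0.07. With TMM the median over genes and hashed samples moved from 0.07 to -0.04 and the counts became 76 higher and 116 lower, so that 39.6% of called genes were higher in place of 53.6%.

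C1qc was at 1316 and 1416 CPM in members, against 125 and 111 CPM in Cd209a cells, and C1qb was 7.57 and 9.53 times as high. Both are encoded beside C1qa and move with the gene the rule used. Lyz2 was at 13387 and 14422 CPM in members, against 2456 and 2896 CPM in Cd209a cells, a ratio of 5.45 (5.24 to 5.68) and 4.98 (4.85 to 5.12). The hashed samples gave nearly the same ratio for this gene.

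Fn1, which encodes the matrix protein fibronectin, was at 933 and 916 CPM in members, against 102 and 143 CPM in Cd209a cells, a ratio of 9.10 (7.55 to 11.05) and 6.42 (5.71 to 7.23). Trem2, a receptor for lipids, was at 355 and 304 CPM against 81.1 and 53.8 CPM. The highest 10 also included F10 (coagulation factor X), the annexin gene Anxa3, the lysosomal Pld3 and the tetraspanin gene Cd81, with mean log2 ratios of 1.94, 1.89, 1.88 and 1.88.

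Ccl17 was at 982 and 388 CPM in members, against 2592 and 2816 CPM in Cd209a cells (log2 ratios -1.39 and -2.83). H2-Oa, a regulator of peptide loading, was at 1.45 and 9.17 CPM in members, against 117 and 109 CPM in Cd209a cells. H2-DMb2, a chain of the peptide-loading molecule H2-DM, was at 75.6 and 67.5 CPM against 285 and 380 CPM. H2-DMb1 and H2-DMb2 are close copies, and how the counting split their reads was not tested. The other genes of the lowest 10 were Klrd1, Tbc1d4, Ltb, Ccl5, Ifitm1, Dpp4 and Kmo, each at 82.8 CPM or less in members. Ccl5 differed between the hashed samples, at 82.8 and 6.67 CPM in members against 176 and 142 CPM in Cd209a cells.

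Of 11 measured macrophage identity genes besides C1qa, 10 were higher in members than in Cd209a cells and none was lower (9 with TMM). Genes of other macrophage functions accompanied them, namely lysosome genes (6 of 14 higher, among them Ctsb, Ctsd and Lgmn, and Cst3 and Napsa lower), lipid-associated genes (4 of 8 higher, 3 with TMM), heme and iron genes (3 of 6 higher, 2 with TMM) and growth factor and matrix genes (Fn1, Tgfbi and Timp2 of 5 higher). Of 8 measured type 2 dendritic cell genes, Dpp4, Kmo, Tnip3 and Ltb were lower and none was higher, and with TMM 7 of 9 measured were lower. Cst3, the cystatin C gene that dendritic cells express strongly, was at 2557 and 2959 CPM in members, against 7813 and 7998 CPM in Cd209a cells.

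Among 13 transcription factors those higher included Irf8, Cebpb and Zeb2, and those lower were Nr4a1 and Bhlhe40, and with TMM the count was 3 in each direction of 14 measured. Of 9 chemokines Ccl6 was higher and Ccl3, Ccl4, Ccl5 and Ccl17 lower. The chemokine list medians were 0.63 and 0.34, and with TMM, where 8 chemokines were measured rather than 9, they were -0.31 and -0.28. Of 5 chemokine receptors Ccr2 and Cx3cr1 were higher. Clec4a2 and Clec4a3 were higher among 8 C-type lectins and none was lower (Clec10a lower with TMM), and none of 7 MHC class I genes was called in either direction.

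**Figure D3:**
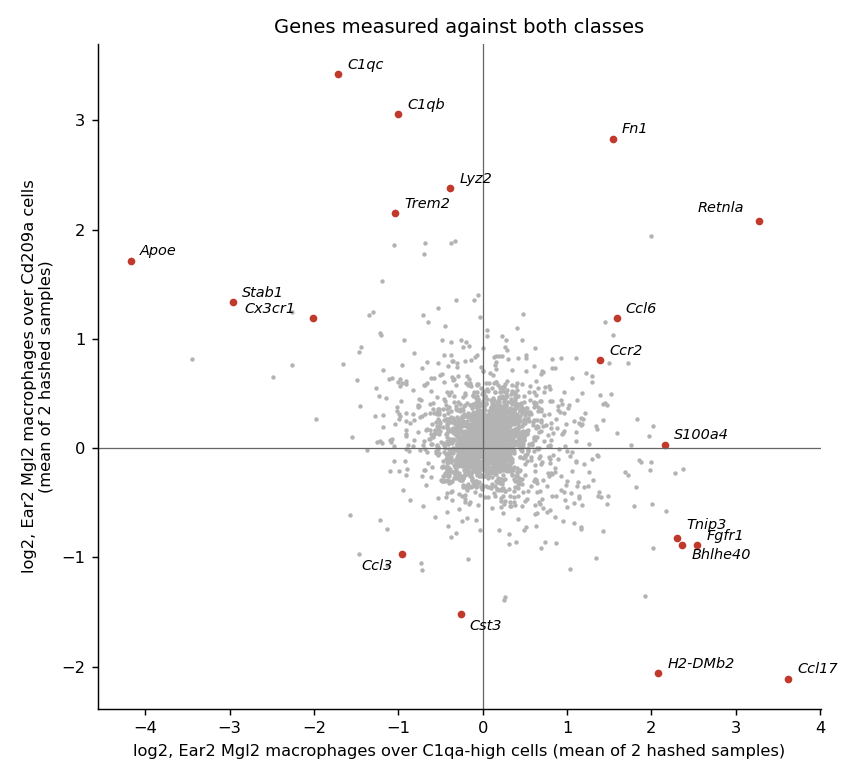
Mean log2 ratio of members to C1qa-high cells (x axis) against mean log2 ratio of members to Cd209a cells (y axis), 1 point for each measured gene, with the genes of the rule left out. Apoe and C1qc lie at upper left, lower than in C1qa-high cells and higher than in Cd209a cells, Ccl17 and Bhlhe40 lie at lower right, and Fn1, Ccr2 and Ccl6 lie at upper right, above both classes.

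A few genes stood above both classes. Since both comparisons share the members, the values are given side by side. Fn1 was at 933 and 916 CPM in members, 292 and 329 CPM in C1qa-high cells and 102 and 143 CPM in Cd209a cells. Ccr2 was at 1284 and 1623 CPM in members, 470 and 631 CPM in C1qa-high cells and 756 and 896 CPM in Cd209a cells. Ccl6, a chemokine of mouse myeloid cells, was at 2361 and 2376 CPM in members, 789 and 772 CPM in C1qa-high cells and 900 and 1187 CPM in Cd209a cells. For each of these genes both hashed samples of the members were above all 4 other values. None of them was called higher than in C1qa-high cells held to the same Ear2, Mgl2 and other limits, or than in the Il1b-high neighbours. Ccl3 stood below both classes, at 93.0 and 103 CPM in members, 179 and 224 CPM in C1qa-high cells and 211 and 193 CPM in Cd209a cells. It was called against neither class once both were held to the members' Ear2, Mgl2, Il1b and Cxcl2 and other limits.

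The middle position was measured gene by gene over the genes that separate the compared classes. Between C1qa-high cells and Cd209a cells, 196 of 2755 genes (7.11%) were at least 2-fold higher and 145 (5.26%) at least 2-fold lower in both hashed samples, the genes of the rule left out. On a scale where the Cd209a level is 0 and the C1qa-high level is 1 (log2 with 10 CPM added), the members lay between the ends in both hashed samples for 282 of these 341 genes (82.7%). The median position was 0.34 in hashed sample 1 and 0.36 in hashed sample 2. In both hashed samples 217 genes were nearer to Cd209a cells and 70 nearer to C1qa-high cells. As the ends were cut on C1qa and Cd209a and the members on an intermediate C1qa, a middle position is partly set by the rule, and how much was not tested.

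Genes did not all take the same position. Lyz2, at 0.84 and 0.88, and C1qb, which moves with the rule's gene C1qa, at 0.74 and 0.76, were nearer to the C1qa-high level. Apoe, at 0.32 and 0.27, and Selenop, at 0.12 and 0.26, were closer to the Cd209a level, as was Ms4a7 at 0.07 and 0.10. S100a4, at -0.0026 and -0.027, and Id2, at 0.09 and 0.09, stood at or near the Cd209a level. Beyond the C1qa-high end in both hashed samples lay 4 genes, Fn1, Cst3, Tbc1d4 and Ltb. Beyond the Cd209a end lay 13, of which Gda, at -0.53 and -0.42, S100a10, at -0.42 and -0.37, and Anxa2, at -0.23 and -0.11, are higher in Cd209a cells than in C1qa-high cells, and Cd72, at -0.60 and -0.10, is lower there.

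MHC class II was present in nearly all members. H2-Eb1, H2-Aa and H2-Ab1 together had a median of 286 and 256 p10k per member, against 203 and 101 p10k in C1qa-high cells, 400 and 396 p10k in Cd209a cells and 5.39 and 6.28 p10k in T cells. Cells under 37 p10k, a limit chosen with earlier results of these cells known, made up 1 of 70 members (1.43%, interval 0.0362 to 7.70%) and 0 of 115 (3 counts would be 2.61%). Among C1qa-high cells they made up 185 of 1020 (18.1%) and 602 of 1529 (39.4%), and among Cd209a cells 1 of 141 (0.709%) and 0 of 280 (3 counts would be 1.07%). The intervals cover counting error only, and the classes were cut on other genes. Where Ear2 and Mgl2 were held at 2 UMIs or more with the rule's other limits, H2-Aa stood no lower at 40 to 80 p10k of C1qa, with 10078 and 9668 CPM, than in the members, with 9541 and 8742 CPM.

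**Figure D4:**
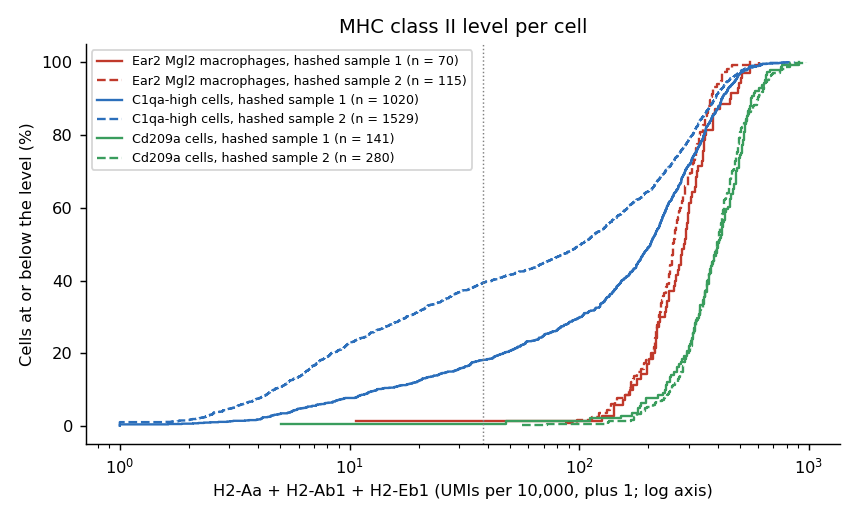
Cumulative share of cells (y axis, %) by the summed level of H2-Eb1, H2-Aa and H2-Ab1 (x axis, p10k plus 1, log scale) in members, C1qa-high cells and Cd209a cells of each hashed sample, with a dotted line at 37 p10k. At the dotted line the curves of C1qa-high cells stand at 18.1% and 39.4% and those of the members at 1.43% and 0%.

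By list medians, the MHC class II level of members lay between the classes. The median log2 ratios were 0.64 and 0.94 against C1qa-high cells and -0.46 and -0.56 against Cd209a cells. By gene, H2-DMb2 alone was called in both comparisons. Of 8 measured genes of class II presentation, H2-DMa, H2-DMb1, H2-DMb2 and the transactivator gene Ciita were higher in members than in C1qa-high cells and none was lower. The chains themselves were not called, with H2-Aa at 9541 and 8742 CPM in members against 7042 and 5018 CPM in C1qa-high cells. Of 9 genes measured against Cd209a cells, H2-DMb2 and H2-Oa were lower and none was higher, and with TMM 5 were lower. Cd74, the invariant chain, was at 23928 and 24962 CPM in members, against 31357 and 33462 CPM in Cd209a cells, which was below the 1.5-fold limit.

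Cells were also taken with Ear2 and Mgl2 at 2 UMIs or more and the other limits, and C1qa was left free. Over bins of C1qa some genes then rose or fell and others stayed level. Such cells numbered 131 and 181 below 10 p10k of C1qa (7.92% and 13.4% of all cells there), 26 and 42 at 10 to 20 p10k (15.1% and 20.2%), 44 and 73 at 20 to 40 p10k (16.4% and 18.3%), 28 and 57 at 40 to 80 p10k (4.24% and 5.31%), and 1 and 5 above. The bins at 10 to 40 p10k are the members. The lowest bin includes 72 and 127 Cd209a cells, and the bins from 40 p10k are C1qa-high cells with Ear2 and Mgl2. Levels over the bins thus partly repeat the class comparisons, and whether the mix of cells changed between bins was not tested. Cells with both genes were thus present on both sides of the members' range and most numerous below it. Their share of all cells was highest within the range, but the 1654 and 1349 cells of the lowest bin include 893 and 427 T cells. The share with T cells left out was not computed, so no peak within the range is read from these shares for the other cells.

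Lyz2 was at 5775 and 4397 CPM in the lowest of the first 4 bins, then 13026 and 13292 CPM, 13570 and 15012 CPM, and 20639 and 22072 CPM. Apoe was at 609 and 472 CPM, then 974 and 656 CPM, 2808 and 1978 CPM, and 11942 and 3013 CPM, with the hashed samples apart in the last bin. Ccl17 ran downward, at 2738 and 2426 CPM, 1776 and 624 CPM, 582 and 264 CPM, and 329 and 255 CPM. These 3 genes kept 1 direction over the 4 bins in both hashed samples.

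Other genes stepped at the lower limit of the members or stayed level. Cst3 was at 6071 and 6210 CPM below 10 p10k of C1qa, then 3031 and 2838 CPM, 2318 and 3023 CPM, and 2642 and 3031 CPM. Fn1 was at 353 and 284 CPM below 10 p10k, then 1169 and 1237 CPM, 813 and 748 CPM, and 841 and 1073 CPM. Both genes thus changed most between the first bin and the second, and only the first bin holds Cd209a cells as defined here. Cd74 was at 28520 and 31588 CPM, 25385 and 24808 CPM, 23193 and 25042 CPM, and 24819 and 28866 CPM, and no bin differed from another by 1.5-fold.

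**Figure D5:**
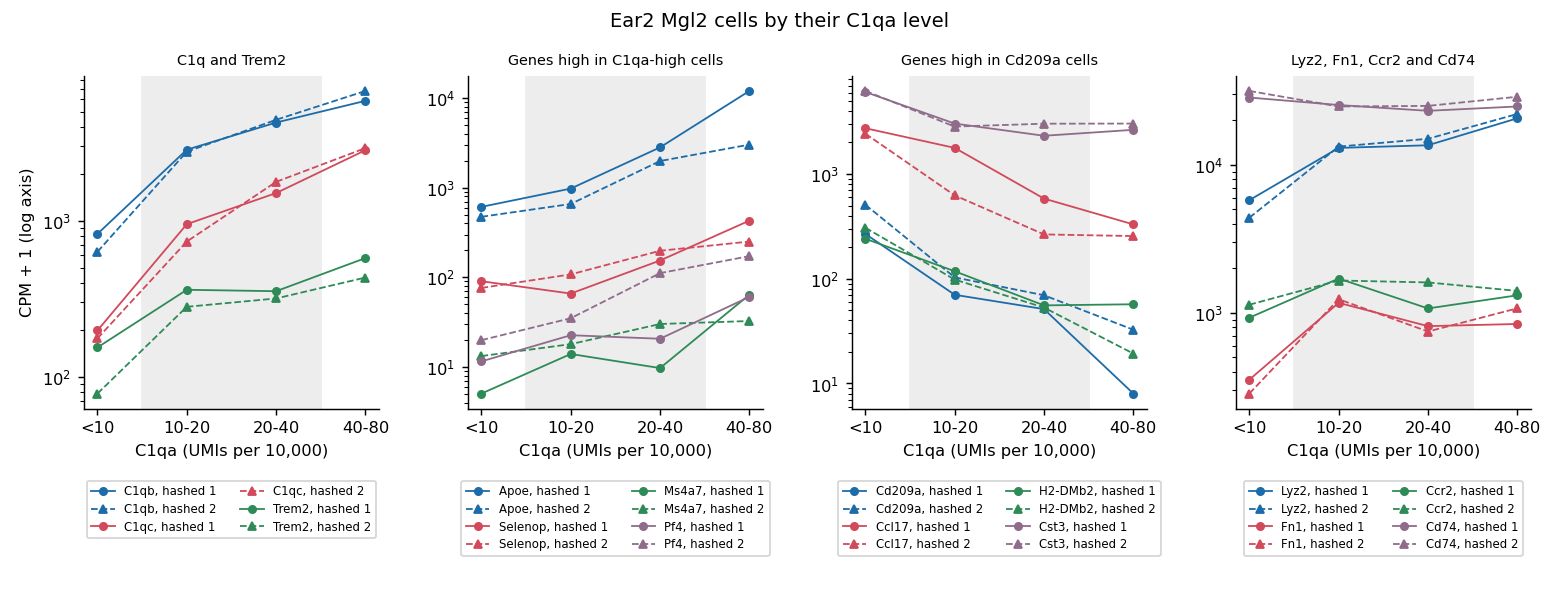
Level of selected genes (y axis, CPM plus 1, log scale) in cells with at least 2 UMIs of both Ear2 and Mgl2, over 4 bins of C1qa (x axis, p10k), with 1 line for each hashed sample and the members' range in grey. Lyz2, C1qb and Apoe run upward, Ccl17 and Cd209a downward, and Cst3 and Fn1 change between the first and second bins.

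Within the members, the 44 and 73 cells at 20 to 40 p10k of C1qa were set beside the 26 and 42 at 10 to 20 p10k. Of 2614 measured genes, 22 were higher (0.842%) and 8 lower (0.306%) in both hashed samples. The higher ones included C1qc, Apoe, Lgmn, Msr1, Selenop and Stab1, all genes of resident macrophages. The lower ones included Ccl17 and H2-DMb2. Few genes therefore varied with C1qa inside the members' range by 1.5-fold in both hashed samples.

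A closer match was made after the data were seen, by holding the compared classes to the same Ear2, Mgl2 and other limits as the members. This left 29 and 62 C1qa-high cells and 72 and 127 Cd209a cells. Against the Ear2- and Mgl2-positive C1qa-high cells, 43 of 2552 genes were higher in members (1.68%) and 27 lower (1.06%). Against the Ear2- and Mgl2-positive Cd209a cells, 88 of 2543 genes were higher (3.46%) and 43 lower (1.69%). With Ear2 and Mgl2 matched, the members thus differed in fewer genes from C1qa-high cells than from Cd209a cells, the opposite of the order against the whole classes, and the matched C1qa-high class held fewer cells. Of the 20 genes named against C1qa-high cells, 13 lost their call, among them Ccl8, Ms4a7, Retnla and S100a4.

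Apoe was at 2192 and 1524 CPM in members, against 12668 and 3457 CPM in the matched C1qa-high cells (log2 ratios -2.53 and -1.18). Ccl17 was still higher in members, with 320 and 240 CPM in the matched cells, as were Bhlhe40 and Tnip3. Fn1 was at 933 and 916 CPM in members against 849 and 1027 CPM, and Ccr2 at 1284 and 1623 CPM against 1305 and 1422 CPM, so that neither gene was called higher than in C1qa-high cells with Ear2 and Mgl2. Ccl6 was not called against those cells either. Ms4a7 was at 10.2 and 25 CPM against 61.3 and 32.7 CPM, and S100a4 at 1890 and 1973 CPM against 1425 and 1659 CPM, neither called. Against the matched Cd209a cells Fn1 was still higher in members, with 133 and 179 CPM in those cells, as were Lyz2, C1qc, Trem2 and Ccl6. Cst3 was still lower in members, with 7203 and 6880 CPM in the matched Cd209a cells. Of the 20 genes named against Cd209a cells, Klrd1, Tbc1d4, Ltb, Ccl5 and Kmo lost their call and Ifitm1 turned round. Of the type 2 dendritic cell genes named as lower, Dpp4 stayed lower, while Kmo, Tnip3 and Ltb were not called.

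Against the near neighbours with high Il1b and Cxcl2, Gadd45b, Cd83, Ptgs2 and most of a list of dissociation stress genes were lower in members. As the neighbours were cut from the members on Il1b and Cxcl2, genes that vary with those differ by construction. Of 2584 measured genes, 32 were higher in members (1.24%) and 96 lower (3.72%), and with TMM these were 47 and 77, so that 37.9% of called genes were higher in place of 25%. With 7 and 27 neighbour cells the 2 hashed samples of that class differed from each other by 1.5-fold in 1370 of 3227 genes, so that single genes are imprecise. Gadd45b, a stress-response gene, was at 68.3 and 86.7 CPM in members, against 790 and 725 CPM in the neighbours. Cd83, an activation marker, was at 97.3 and 72.5 CPM against 479 and 379 CPM, and Ptgs2, which encodes cyclooxygenase 2, at 13.1 and 52.5 CPM against 508 and 168 CPM. The other genes of the lowest 10 were Areg, Nr4a3, Slc7a11, Dusp5, Nr4a1, Csrnp1 and Tnfsf9. Of the 15 dissociation stress genes 11 were lower, among them Fos at 487 and 643 CPM against 2030 and 1461 CPM. None of 11 identity genes, 8 class II genes, 14 lysosome genes (1 higher with TMM) or 8 hypoxia and glycolysis genes was called in either direction.

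The genes highest in members over these neighbours included Retnla and the proximal tubule genes Gpx3 and Slc34a1. The tubule genes' UMIs sat in few cells, since 3 members held 84.8% and 71.2% of the Gpx3 UMIs and 94.7% and 85.0% of the Slc34a1 UMIs. Tubule markers summed to 10 p10k or more in 5 of 70 and 2 of 115 members. With such cells left out of both classes, Slc34a1 turned to a mean log2 ratio of -0.23, and Gpx3 was no longer called.

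A list of 15 dissociation stress genes moved with the classes. The sum over the list had a median of 37.2 and 51.4 p10k in members, against 22.6 and 22.6 p10k in C1qa-high cells, 59.5 and 70.5 p10k in Cd209a cells and 134 and 121 p10k in the Il1b-high neighbours. Of the list's genes 6 were higher than in C1qa-high cells (5 with TMM), and Hspa1a, Nfkbia and Socs3 were lower than in Cd209a cells (5 lower with TMM). Their part in the differences above was not tested.

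The members were not uniform. Of the 2863 genes measured in them, 219 (7.65%) differed by 1.5-fold between the hashed samples, against 3.18% of genes in C1qa-high cells and 3.37% in Cd209a cells, which were summed over more cells. Ranked by the lower of the hashed samples' values of variance over mean, Apoe, Lyz2, Gpx3, Malat1 and Ccl17 varied most between single members among 1774 genes. In hashed sample 2 Retnla, which this ranking places lower, was above all of these at 114, against 13.7 in hashed sample 1. Lyz2 ran from 3.31 to 581 p10k in hashed sample 1 and from 5.61 to 540 p10k in hashed sample 2. Fn1 had a UMI in 40 of 70 and 84 of 115 members, with the highest cells at 96.3 and 51.5 p10k. A Retnla UMI was thus present in a minority of the members, while Fn1 and Ccl17 UMIs were present in a majority, at levels that varied widely. How many members were rich in Apoe, Ccl17 or Fn1 was not counted.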

How the data were processed

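Both matrices, as deposited, gave raw counts of UMIs for each gene in each cell. Their headers name Cell Ranger 6.1.1, while the submitters' processing notes give the mm10 build, Seurat 4.3.0 and Cell Ranger 6.0. No normalization had been applied by the authors. Barcodes had already been filtered and assigned to a hashed sample by the authors' run.

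Cells were kept at 500 UMIs, 200 genes and at most 10% mitochondrial UMIs, which left 3115 and 3486 cells with medians of 5688 and 6570 UMIs. Counts were summed per class and hashed sample and compared as described with the results. Calling and intervals were tested on simulated data. T cells, used as a reference for free RNA, had 2 or more Cd3 UMIs and under 10 p10k of C1qa. No doublet was removed. Scrublet (scanpy 1.11.5) calls and 6 cells with an unclear hashtag were left out in an alternative. TMM factors came from edgeR 4.0.16 (R 4.3.3), and other work used Python 3.11.15, numpy 2.4.6 and scipy 1.17.1.

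Named genes were the 10 called genes with the highest and the 10 with the lowest mean log2 ratio per comparison, leaving out genes of the rule, mitochondrial, ribosomal, immunoglobulin, T cell receptor and sex-linked marker genes and unnamed gene models, plus members of 39 gene lists by their counts. Some genes that the rule or the lists chose are counted but not reported here by name. The rule for the members and the lists were chosen with earlier results of these data known, and lists with no called gene are not all described. The alternatives changed the CPM minimum, the pseudocount, the fold, the scaling, the depth, the limits of the rule, the hashed samples and the compared cells.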

Additional observations from a re-analysis of the deposited data

How the results depend on the processing

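Gene counts below are higher and then lower in members, against C1qa-high cells, Cd209a cells and Il1b-high neighbours in that order. A minimum of 10 CPM gave 321 and 391, 208 and 174, and 325 and 200. A fold of 2 gave 80 and 107, 31 and 32, and 4 and 48. In hashed sample 1 alone 293 genes were higher than in C1qa-high cells, the counts against Cd209a cells were 271 and 142, and those against the neighbours 551 and 733. In hashed sample 2 alone the last comparisons gave 177 and 159, and 157 and 241. A pseudocount of 1 CPM gave 52 genes higher than in the neighbours. With C1qa at 15 to 30 p10k that count was 85, the members made up 1.25% and 1.52% of cells, and the share of members low in MHC class II in hashed sample 1 was 0%, as it was with 3 UMIs of Ear2 and of Mgl2. With compared cells also positive for Ear2 and Mgl2, an alternative added after the data were seen, the counts were 43 and 27 against C1qa-high cells and 43 genes were lower than in Cd209a cells, where Ifitm1 turned to a mean log2 ratio of 0.0097. With cells rich in tubule RNA left out, also added later, Slc34a1 turned to -0.23 against the neighbours. The fold and the pseudocount act on the same genes and cells, while the other settings change which of them enter, and no other cause was tested. Genes chosen by the naming rule kept their call in 284 of 300 recomputed values against C1qa-high cells, 289 of 300 against Cd209a cells and 213 of 240 against the neighbours. The lower CPM minimum, the smaller pseudocount and each hashed sample alone could not undo a call, so these tallies overstate stability. Of the 16 values that lost their call against C1qa-high cells, 13 came from compared cells also positive for Ear2 and Mgl2. No paired analysis was possible because the results come from no test, and each call already sets the classes side by side within each hashed sample. Depth limits genes under 50 CPM, and the 7 and 27 neighbour cells limit every value that rests on them.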
